A study of Homo sapiens and Homo sapiens
Mus musculus and Mus musculus with 9 samples.

Results

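The genes described are 10 human genes of retinoic acid metabolism and signalling, out of 41713 genes in the deposited table. They are the rows of that table whose symbol is DHRS3, ALDH1A1, ALDH1A3, CYP26A1, CYP26B1, RARA, RARB, RARG, CRABP2 or RDH11, and all 10 were found. The set was chosen on the signs of the authors' fold changes of DHRS3 and ALDH1A1 between the cultures. Those fold changes belong to the authors' own comparison and are not used here, so the values below are levels and no difference between the cultures was tested.

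The table rests on 6 libraries of stranded mRNA. In 3 of them, C4-2B cells, a human prostate cancer cell line, were cultured alone. The other 3 came from a mixed co-culture of C4-2B with MC3T3-E1, a mouse osteoblast line, at a ratio of 1 to 30, used as a model of cancer cell dormancy in bone. A further 3 libraries of MC3T3-E1 alone were not analysed here. The labels give both lines as WT, while the study's text describes the co-cultured C4-2B cells as carrying a GFP label. The labels name alpha-MEM with 10% serum for all cells, while the study's methods name RPMI-1640 for C4-2B and the medium of the stromal cells for co-cultures. Each species is represented by a single cell line, and the labels do not say whether the libraries came from separate cultures.

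Retinoic acid is the active form of vitamin A. Retinol is oxidised to retinal by retinol dehydrogenases, retinal is oxidised irreversibly to retinoic acid by the ALDH1A enzymes, and CYP26 enzymes break retinoic acid down. Inside the nucleus it binds the receptors RARA, RARB and RARG, which act on DNA as pairs with RXR proteins, and retinoids are known as differentiation signals in epithelia, the prostate among them.

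Because the co-culture libraries held RNA of both species, the human reads had to be told from mouse reads by sequence. The stretches below are shown because, within them, no base marks the species of a read. Each is the longest part of the human coding sequence that occurs unchanged in a mouse transcript, set in capitals, with up to 10 human bases on either side in lower case. They were read 5′ to 3′ on the coding strand from the GENCODE release 44 transcripts (GRCh38), and in each case the matching mouse transcripts belonged to the gene of the same name alone.
DHRS3: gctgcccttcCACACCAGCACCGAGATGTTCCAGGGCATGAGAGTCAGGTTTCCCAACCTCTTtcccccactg
CYP26A1: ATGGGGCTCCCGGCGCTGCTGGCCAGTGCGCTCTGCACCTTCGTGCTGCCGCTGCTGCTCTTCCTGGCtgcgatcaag
RARB: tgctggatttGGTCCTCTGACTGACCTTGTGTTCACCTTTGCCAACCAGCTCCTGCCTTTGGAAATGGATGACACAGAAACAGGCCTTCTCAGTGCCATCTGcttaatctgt
ALDH1A1: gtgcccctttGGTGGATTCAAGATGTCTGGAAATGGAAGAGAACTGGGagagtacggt

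The DHRS3 stretch has 53 bases and covers coding bases 661 to 713 of a 906-base coding sequence, at chr1:12572839-12578755 on the minus strand, across a splice junction. The CYP26A1 stretch has 68 bases, begins at the start codon and lies at chr10:93073935-93074002 on the plus strand. The RARB stretch, at chr3:25593602-25593693 on the plus strand, was the longest of the 10 genes with 92 bases. That of ALDH1A1, at chr9:72901278-72905992 on the minus strand, had 38 bases, less than the 50 bases of a single read. Of all 50-base windows of the coding sequence, 4.86% occurred in mouse transcripts for RARB, 4.49% for RARA, 1.87% for CYP26A1, 0.467% for DHRS3 and 0% for ALDH1A1, ALDH1A3, CRABP2 and RDH11.

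The level of a gene is given as its mean normalised count, the authors' mean over all 6 libraries of reads per gene divided by the library's size factor, which puts libraries of unequal depth on 1 scale. The authors made it with 3 pipelines that separate the species differently, namely Xenome and XenofilteR, which filter reads, and Kallisto, which assigns them to joined human and mouse transcripts. The means have no error of their own. The C4-2B label was checked against its markers: the 8 prostate luminal markers with a value had means from 4603 for TMPRSS2 to 51038 for KLK3 with Xenome. Among 8 osteoblast markers, SP7, BGLAP, ALPL and IBSP had means of at most 3.78 with Xenome, whereas COL1A1 had 3384, RUNX2 had 411, SPARC had 72.0 and COL1A2 had 45.0. COL1A2 had 264 with XenofilteR and 222 with Kallisto, and SPARC had 142 with each. What part reads of mouse origin have in these values was not tested.

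**Figure D1:**
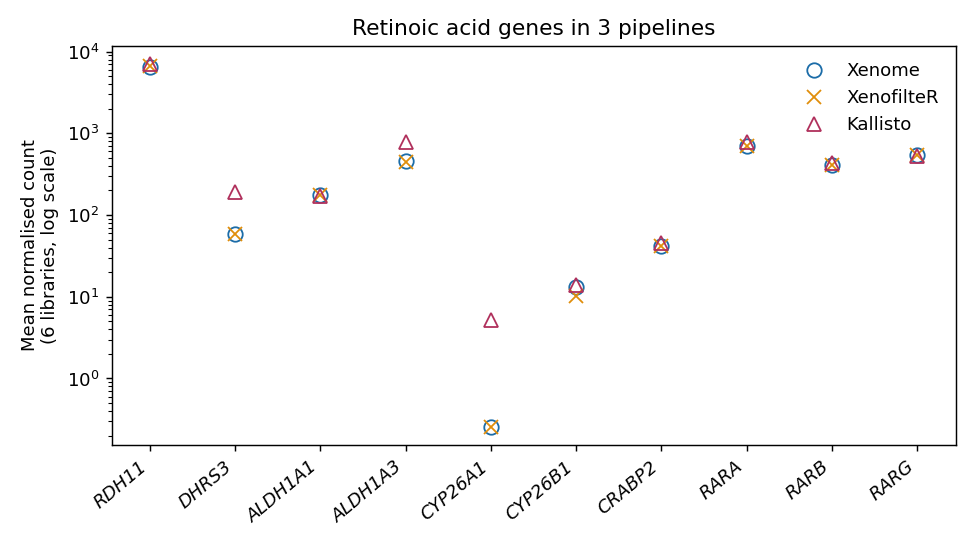
Mean normalised count of each of the 10 genes over 6 libraries (vertical axis, log scale, no error available), as circles for Xenome, crosses for XenofilteR and triangles for Kallisto. The pipelines overlie each other for most genes, and the Kallisto value stands above the others for DHRS3, ALDH1A3 and CYP26A1.

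RDH11, which reduces retinal in the prostate and is known there as an androgen-regulated gene, had by far the highest level of the 10. Xenome gave a mean count of 6510, XenofilteR one of 6631 and Kallisto one of 7049, and 92.2% of protein-coding genes were lower with Xenome. It lies on chromosome 14 of GRCh38 from 67676800 to 67695793. Of the exonic bases of RDH11, 6.29% are shared with another gene annotated on the same strand.

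DHRS3 (ENSG00000162496) works in the same direction as RDH11, from retinal back to retinol, and is itself induced by retinoic acid in many cells. It lies on chromosome 1 from 12567910 to 12618210. The filtering pipelines gave nearly the same mean count, 59.2 (Xenome) and 58.9 (XenofilteR), but Kallisto gave 190.4. With Xenome, 35.5% of the protein-coding genes with any reads had a lower mean count.

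The enzymes that make retinoic acid were at intermediate levels. ALDH1A3, on chromosome 15 from 100877714 to 100916626, had 454 with Xenome, 452 with XenofilteR and 791 with Kallisto. ALDH1A1 (ENSG00000165092), also known as a marker of stem-like tumour cells, lies on chromosome 9 from 72900671 to 73080442. Its mean counts were 178, 176 and 172 in the same order, and 41.8% of the protein-coding genes with any reads were lower with Xenome.

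Both enzymes among the 10 that clear retinoic acid were near the bottom of the range. CYP26B1, on chromosome 2 from 72129238 to 72148038, had mean counts of 13.3, 10.3 and 14.01. CYP26A1, the classical retinoic acid target on chromosome 10 from 93073475 to 93077885, had 0.256 with each of Xenome and XenofilteR and 5.15 with Kallisto. CRABP2, which carries retinoic acid to the receptors, lies on chromosome 1 from 156699606 to 156705816 and had 42.2, 42.2 and 45.2.

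The receptors came next below RDH11 and around ALDH1A3 in mean count. RARA, on chromosome 17 from 40309180 to 40357643, had 692 with Xenome, RARG, on chromosome 12 from 53210567 to 53232980, had 542, and RARB, on chromosome 3 from 25174332 to 25597932, had 409. XenofilteR gave 692, 540 and 412 for RARA, RARG and RARB, and Kallisto gave 778, 523 and 438. Of the exonic bases of RARA, 21.4% overlap genes annotated on the opposite strand. The share with other genes was 33.3% for ALDH1A3, on either strand, and 25.3% for CYP26A1, on the same strand. The part of these overlaps in the levels was not tested.

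Levels of different genes were compared per kilobase of annotated exon, with Xenome. RDH11 stood first with a mean count per kilobase of 1184. RARA followed with 146, RARG with 106, ALDH1A3 with 85.1 and ALDH1A1 with 62.6. RARB had 43.3, CRABP2 had 39.0 and DHRS3 had 16.8. The lengths come from GENCODE 44, where RARB starts at 24687887 and so spans more than in the deposited table, and its value with the longest transcript as the length was 83.5. CYP26B1 had 2.76 and CYP26A1 had 0.0865. Over the 6 libraries the count per kilobase of ALDH1A1 ran from 14.7 to 136, that of CRABP2 from 30.3 to 59.4 and that of DHRS3 from 0 to 32.3, so these neighbours overlapped. The place of ALDH1A1 above them rests on the shallower libraries: its count per kilobase was 14.7 in L1, below DHRS3 with 25.4 and CRABP2 with 42.7, was close to both in L2 and L3, and was 114 in L5 and 136 in L6. The count per kilobase of CYP26B1, from 1.94 to 3.80, overlapped that of DHRS3 but not that of CRABP2. The order depended on the pipeline. With Kallisto, DHRS3 had 54.2 per kilobase, above RARB with 46.3 and CRABP2 with 41.8, and ALDH1A3 had 148, above RARG with 102. For RDH11, ALDH1A3 and the receptors the spread is unknown, and their order cannot be set against it.

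For 5 of the 10 genes, the reads in each library could be read back from the means. A mean count is a sum of whole reads, each divided by a size factor, and the deposited values carry enough digits to solve it. With Xenome, the size factors came to 5.93, 5.31, 4.86, 0.427, 0.145 and 0.109, a 54.4-fold range. They scale with the reads kept as human in a library, which is what depth means here, and not with all reads sequenced. The libraries are called L1 to L6 from the deepest to the shallowest. Nothing in the labels ties a solved library to a sample, so they are put in no culture, and what follows is a description of 6 libraries. L1, L2 and L3 stand apart from L4, L5 and L6 in depth, and no label says whether that split follows the cultures. The unequal depth sets the precision: 1 read adds 0.0281 to the mean count in L1 and 1.53 in L6, and a floor of 3 reads is a normalised count of 0.506 in L1 and 27.6 in L6. Intervals are exact Poisson intervals at 95% and, like the floors, cover counting error only.

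DHRS3 had 530 reads in L1, 603 in L2, 503 in L3, 9 in L4, 0 in L5 and 3 in L6. Its normalised counts were 89.4 (95% interval 82.0 to 97.4) in L1, 113 (105 to 123) in L2, 103 (94.6 to 113) in L3, 21.1 (9.65 to 40.1) in L4, 0 (up to 25.5) in L5 and 27.6 (5.68 to 80.5) in L6. The values of L1, L2 and L3 were thus above those of L4, L5 and L6. DHRS3 was picked on the sign of its fold change over these same libraries, so this is a description and not a result. XenofilteR changed the reads by at most 4 in a library and left L4, L5 and L6 as they were.

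ALDH1A1 had 248 reads in L1, 531 in L2, 477 in L3, 50 in L4, 47 in L5 and 42 in L6. Divided by the size factors these came to 41.8 (36.8 to 47.4), 99.9 (91.6 to 109), 98.1 (89.5 to 107), 117 (87.0 to 155), 325 (239 to 432) and 386 (278 to 521). Unlike the other 4 solved genes, ALDH1A1 was solved from Xenome and XenofilteR together, on the assumption that their reads in a library differed little. L5 and L6 were the highest, L1 was the lowest, and L2, L3 and L4 overlapped within counting error. The highest value was 9.22 times the lowest. ALDH1A1 was thus lowest in a library where DHRS3 was high and highest in libraries where DHRS3 was low. Because the genes were picked for moving in opposite directions, this is a description and not a result.

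**Figure D2:**
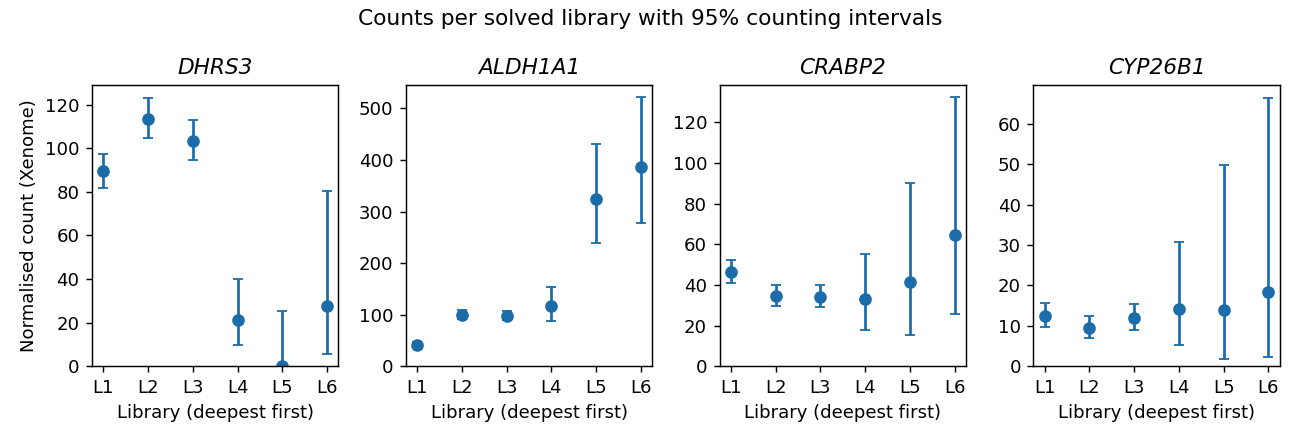
Normalised counts with Xenome (vertical axes, from 0) in the 6 solved libraries L1 to L6, ordered by depth, for DHRS3, ALDH1A1, CRABP2 and CYP26B1. Points are single libraries and bars are 95% counting intervals, which widen from L4 on: DHRS3 runs from 0 to 113, ALDH1A1 from 41.8 to 386, CRABP2 from 32.8 to 64.3 and CYP26B1 from 9.41 to 18.4.

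CRABP2 held 274, 183 and 166 reads in L1, L2 and L3, and 14, 6 and 7 in L4, L5 and L6. Its normalised counts were 46.2, 34.4, 34.1, 32.8, 41.4 and 64.3. The interval of L1, 40.9 to 52.0, lay above those of L2, 29.6 to 39.8, and L3, 29.1 to 39.8. The highest value, in L6, rested on 7 reads and had an interval of 25.8 to 132. Over the 6 libraries CRABP2 came to 42.2 ± 12.0 (SD, n = 6). That SD spans both cultures and unequal counting error, so it is not a spread of replicates.

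CYP26B1 had 74, 50 and 58 reads in L1, L2 and L3, and 6, 2 and 2 in L4, L5 and L6. With Xenome, the normalised counts were 12.5, 9.41, 11.9, 14.1, 13.8 and 18.4, or 13.3 ± 2.97 (SD, n = 6, over both cultures). Every interval overlapped every other. XenofilteR removed 1 read from L2 and both reads from L6. Those 2 reads account for nearly all of the distance between the Xenome mean of 13.3 and the XenofilteR mean of 10.3. With XenofilteR the SD was 5.32 and the lowest value was 0, in L6.

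CYP26A1 was covered by 8 reads in L1, 1 in L2 and 0 in the remaining 4 libraries, in Xenome and in XenofilteR alike. In L4, L5 and L6 the floor of 3 reads corresponds to a normalised count of 7.03, 20.7 and 27.6, so a level many times that of L1 would not have been detectable there. Its mean count without L1 was 0.0376.

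The pipelines were then compared gene by gene. Ratios of mean counts were centred on the median over the protein-coding genes that reached a mean count of 50 in each pipeline, and a ratio of at least 2-fold was counted. Of 11580 such genes, 5.71% were at least 2-fold higher with Kallisto than with Xenome and 0.363% at least 2-fold lower. Of the 7 retinoic acid genes above that minimum, DHRS3 alone was higher, at 3.16-fold (log2 ratio 1.66), and 0 were lower. Of these genes, 3.13% had a larger ratio than DHRS3. ALDH1A3 stayed under the 2-fold mark with 1.71-fold, or 0.77 on the log2 scale, and 7.39% of genes exceeded it. The remaining 5 lay between -0.08 (RARG and ALDH1A1) and 0.14 (RARA), with RARB at 0.07 and RDH11 at 0.09. The pipelines read the same libraries, so these ratios carry no replicate error.

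**Figure D3:**
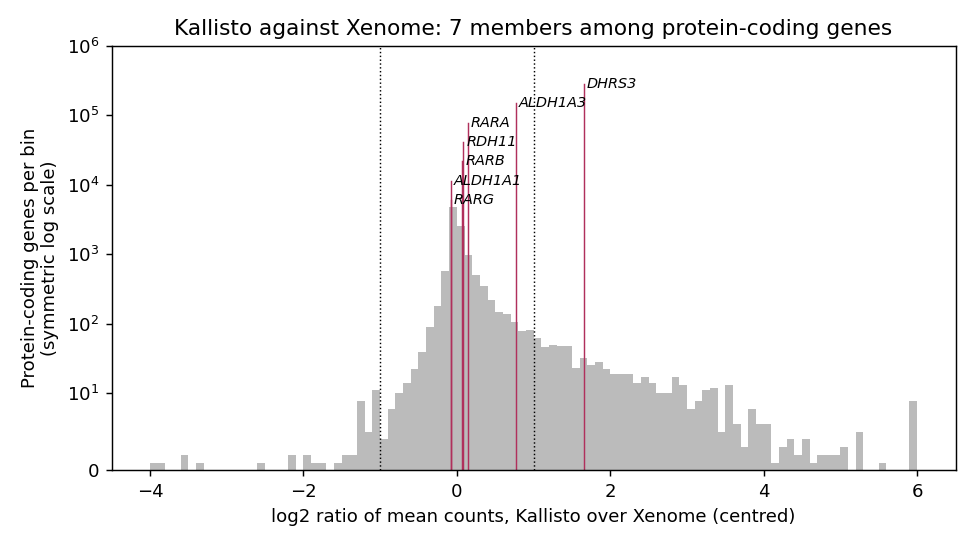
Distribution of the centred log2 ratio of mean counts, Kallisto over Xenome, over 11580 protein-coding genes (grey bars, symmetric log scale, bins of 0.1, values beyond the ends in the outermost bins). Lines mark the 7 retinoic acid genes above the minimum and dotted lines the 2-fold marks: DHRS3 lies beyond the upper mark, ALDH1A3 short of it and the other 5 around 0.

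Below the minimum, CYP26A1 had 19.7 times the Xenome value with Kallisto, and CRABP2 and CYP26B1 had 1.05 and 1.03 times. CYP26A1 rested on 9 Xenome reads, 8 of them in L1, so its ratio is uncertain. XenofilteR was compared with Xenome in the same way. Of 11647 protein-coding genes, 0.00859% were at least 2-fold higher and 0.0172% at least 2-fold lower with XenofilteR, and 0 of the 7 were either. The ratios of the 7 ran from 0.991 for ALDH1A1 to 1.02 for RDH11. Below the minimum, CYP26B1 had 0.768 times the Xenome value with XenofilteR, a ratio that rests on the reads removed from L2 and L6.

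The share of a gene's sequence that mouse transcripts also hold was measured in words of 31 bases, over all annotated human transcripts of the gene. The median protein-coding gene shared 0.504%. RARA shared 4.65%, CYP26B1 3.71%, RARB 3.57%, CYP26A1 3.38% and RARG 2.74%. DHRS3 shared 1.80%, more than 78.4% of protein-coding genes. CRABP2 shared 1.11%, ALDH1A1 0.53%, RDH11 0.191% and ALDH1A3 0.168%. The receptors thus shared the most among the 7 genes above the minimum and had ratios close to 1, whereas ALDH1A3 shared the least and had the second-highest ratio. The part of shared sequence in the DHRS3 and ALDH1A3 ratios was not tested.

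**Figure D4:**
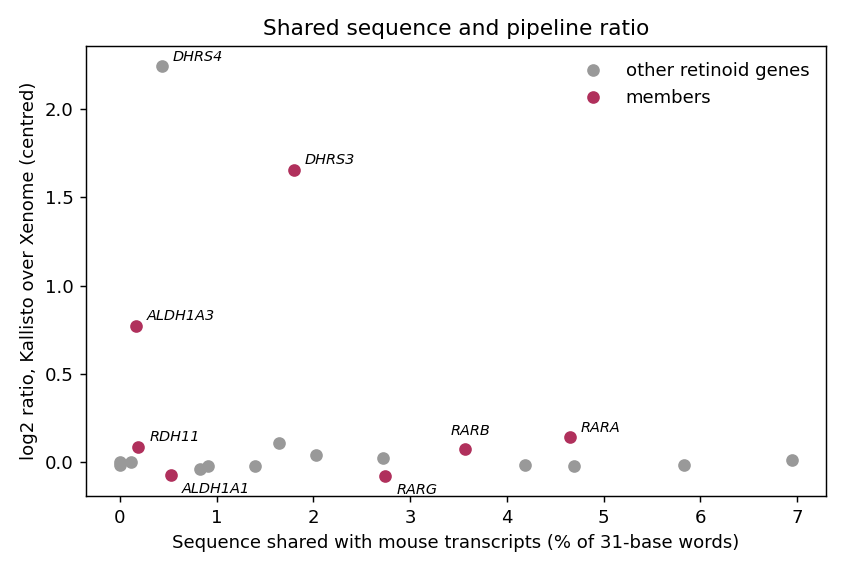
Centred log2 ratio of mean counts, Kallisto over Xenome (vertical axis), against the percent of 31-base words shared with mouse transcripts (horizontal axis), for retinoid genes that reached a mean count of 50 in each pipeline; red points are the 7 retinoic acid genes and grey points other retinoid genes. DHRS3 (1.80%, 1.66) and DHRS4 stand above the rest, and RARA has the highest share of the red points at 4.65%.

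The 10 genes were set beside 38 other genes of retinoid uptake, metabolism and response. With Xenome, 14 of these reached a mean count of 50 and 24 did not, against 7 and 3 of the 10. Of 17827 protein-coding genes with a Xenome mean above 0, 11647 reached 50 with both Xenome and XenofilteR. The 7 of 10 was near that share and the 14 of 38 below it, and neither was tested. The partner receptors RXRA (464 per kilobase) and RXRB (351) stood above each of the RAR genes in count per kilobase, whereas RXRG had 10 reads in all 6 libraries together. The cofactors were the highest group, with all 5 above the minimum and NCOA1 at 855 per kilobase. RDH14 led the oxidoreductases at 487, below RDH11.

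In the other roles, few genes reached the minimum. DGAT1 led uptake and storage at 282 per kilobase, and the targets had 1 of 6 genes above the minimum, NRIP1 at 343. ALDH1A2, the remaining retinal-oxidising enzyme of the ALDH1A family, had 4.05 per kilobase with Xenome and 1.48 with Kallisto. Its 705 Xenome reads were split into 250, 225 and 211 in L1, L2 and L3 and 15, 1 and 3 in L4, L5 and L6. CYP26C1 was covered by 7 reads. With Xenome, BCO2 led carotenoid cleavage at 2.03 per kilobase, and FABP5 led the other binding proteins at 3.03. Kallisto gave BCO2 3.13 and FABP5 9.52 per kilobase. Among the other listed genes that reached 50 in each pipeline, only DHRS4 was past 2-fold between Kallisto and Xenome, at 4.74-fold. DHRS4 is a retinal reductase with near copies in a cluster. The part of the copies in this ratio was not tested.

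**Figure D5:**
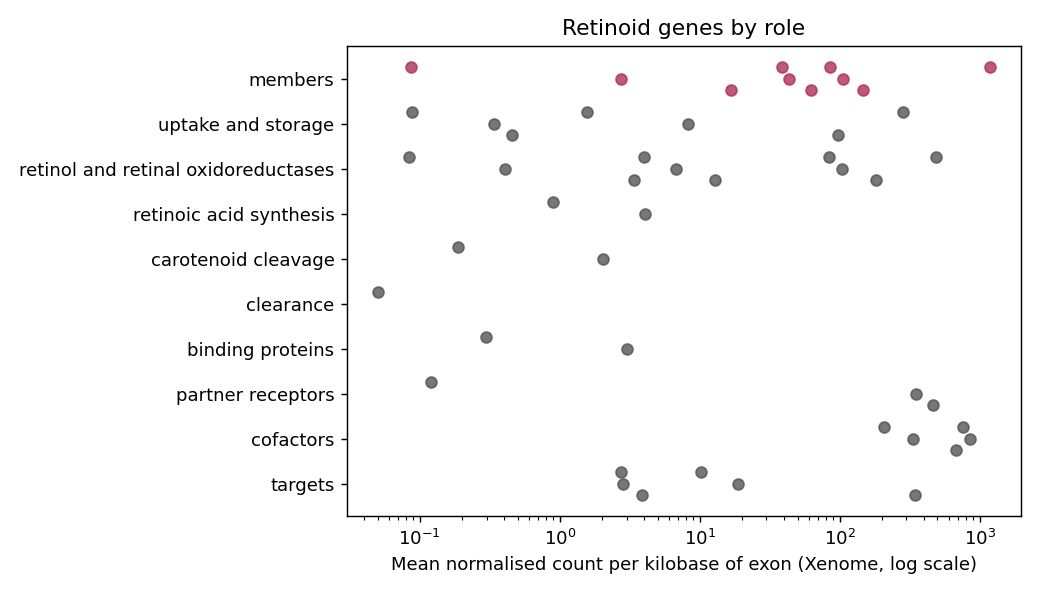
Mean normalised count per kilobase of exon with Xenome (horizontal axis, log scale) for the 10 retinoic acid genes (red) and 38 other retinoid genes by role (grey); each point is a gene, without error. RDH11, at 1184, is the rightmost point of all, and CYP26A1, at 0.0865, is the leftmost of the red points.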

How the data were processed

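Stranded mRNA libraries of C4-2B alone and of the co-culture (3 each) were sequenced as paired reads of 50 bases. The authors separated the species with Xenome before alignment to GRCh38, with XenofilteR after alignment to each genome, or with Kallisto on joined transcripts, took counts per gene and normalised them with DESeq2. Versions were not given in the sources used here. The deposited table holds, per pipeline, the authors' mean normalised count over both groups, which was used, and their own comparison of the groups (fold change, standard error, statistic, p-value and adjusted p-value), which was not. It gives no value per sample, so the edgeR test planned for the groups was not run.

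The 41713 genes left after dropping 21 duplicate rows include 19939 protein-coding genes. Whole reads were solved by exhaustive search (mean count up to 60) from size factors found in the steps of low values. DHRS3, CRABP2, CYP26B1 and CYP26A1 had exactly 1 solution each, as did all 20014 genes with a Xenome mean below 10. ALDH1A1 was solved jointly in Xenome and XenofilteR (up to 200), assuming that reads per library differed by at most 3 reads or 3%, a step added after seeing the data. Of 101 Xenome and 114 XenofilteR candidates, 1 pair met it. Solving was not tried on the Kallisto values. Shared sequence was counted between GENCODE 44 human and GENCODE mouse transcripts. The alternatives covered the pipeline, length, minimum, fold, centring and single libraries.

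The members and lists were chosen with earlier results of these data known. The genes named were the 10 members, the highest listed gene per kilobase in each role, and listed genes above the minimum and past 2-fold between Kallisto and Xenome. RXRB, RXRG and the markers other than the highest of each list were named after their values were seen. Python 3.11.15 was used with numpy 2.4.6, pandas 2.3.3, scipy 1.17.1 and numba 0.67.0.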

Additional observations from a re-analysis of the deposited data

How the results depend on the processing

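No paired analysis was possible because the table holds means over both groups and no value per sample. With no group of samples to compare, no result rests on a test. At 1.5-fold, 1085 of 11580 protein-coding genes (9.37%) were higher and 83 lower with Kallisto than with Xenome, and at 3-fold 390 (3.37%) and 12. With a minimum mean count of 10 these numbers were 1134 of 13243 (8.56%) and 86, with a minimum of 1000 they were 155 of 7257 (2.14%) and 5, and with no minimum 3135 of 17778 (17.6%) and 316. The members higher with Kallisto numbered 2 of 7 at 1.5-fold (DHRS3 and ALDH1A3), 0 of 1 with a minimum of 1000, which RDH11 alone reached, and 2 of 10 with no minimum (DHRS3 and CYP26A1), the last close to the share of all genes. Fewer genes enter under a higher minimum, and otherwise the cause was not tested. The share of genes with a lower mean count depended on the genes counted. For DHRS3 it was 64.96% over all genes and 13.8% over protein-coding genes with a mean of 10 or more, and for ALDH1A1 70.9% and 22.3%. With the longest transcript as the length, the mean count per kilobase was 26.9 for DHRS3, 131 for ALDH1A3 and 186 for RARG.

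Leaving out each solved library in turn, the Xenome mean ran from 48.3 to 71.003 for DHRS3, from 136 to 205 for ALDH1A1, from 37.8 to 44.1 for CRABP2, from 12.3 to 14.1 for CYP26B1 and from 0.0376 to 0.308 for CYP26A1, whose lowest value is the one without L1. Depth limits L4, L5 and L6, where single reads move a normalised count by more than in L1, L2 and L3.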
